A study of Mus musculus with 12 samples.

Results

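The growth hormone and STAT5 axis was followed in mouse kidney through 10 genes: the receptors *Ghr* and *Prlr*, the kinase *Jak2*, the transcription factors *Stat5a* and *Stat5b*, the feedback inhibitors *Cish*, *Socs1*, *Socs2* and *Socs3*, and the growth factor *Igf1*. They were taken by symbol from 55401 genes, and all 10 passed the filter on low counts, as did 14159 genes in all. *Cish* was selected on its low level in SK-124-treated mice in these same data, so its values are described without a test. The other 9 genes were listed by pathway, and the question was whether they, and other known STAT5 targets, moved as *Cish* did. Whole kidneys of male C57BL6 mice, aged 8 weeks, were profiled by bulk RNA-Seq, 1 library per mouse. Of these mice, 6 received a single intraperitoneal injection of vehicle (15% 2-hydroxypropyl-beta-cyclodextrin) and 6 received SK-124 at 40 mg/kg. SK-124 is a small molecule that inhibits the salt-inducible kinases SIK2 and SIK3, which act downstream of the parathyroid hormone receptor. The interval between injection and collection of these kidneys is not given in the sources used here.

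Each library held between 19244227 and 19771802 expected counts, which are reads assigned to genes, fractional where a read maps to several. Levels are given as CPM (counts scaled to library size, with edgeR's TMM factors) for comparisons between mice, and as TPM (the transcript share of a library, corrected for length) for comparisons between genes. SK-124 was compared with vehicle by edgeR's quasi-likelihood test, p-values were adjusted over all tested genes by Benjamini and Hochberg (FDR), and a gene was called at an FDR under 0.05. Of all genes tested, 10.8% were called higher and 13.5% lower, and in 13.0% the 6 mice of one group did not overlap the 6 of the other in CPM. The 10 most abundant genes took 44.4% to 46.8% of counts in SK-124-treated mice 1 to 3, above the 39.9% to 43.2% of vehicle-treated mice, and 38.6% to 40.2% in SK-124-treated mice 4 to 6. Mice 1 to 3 and mice 4 to 6 were therefore also each compared with all vehicle-treated mice. Scaled by library totals alone, the median log2 difference over all tested genes moved from -0.01 to -0.12, and the called genes that were higher went from 44.5% to 20.3% of all called genes. The alternative fits by limma on TPM, which use no TMM factors, shifted likewise. Their medians were -0.11 on log2(TPM + 1) and -0.14 on log2(TPM + 0.1), and 19.0% of called genes were higher on either scale. Small increases are read against these shifts.

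Growth hormone and prolactin bind receptors that carry the kinase JAK2. JAK2 phosphorylates STAT5A and STAT5B, which enter the nucleus and turn on genes with a palindromic site, among them those of the suppressor of cytokine signaling (SOCS) family. The SOCS proteins then act back on the receptors, JAK2 or STAT5 and damp the signal. In the liver this route drives IGF-1 secretion and body growth, and the kidney is one of the organs with abundant growth hormone receptor.

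In vehicle-treated kidneys *Ghr* had the highest level of the 10 genes, at 162 TPM, a level above that of 97.6% of the genes tested. *Cish* followed at 12.8 TPM and *Socs2* at 8.18 TPM, and the ranges of these 2 genes overlapped. *Stat5b* (4.40 TPM), *Stat5a* (3.95 TPM), *Jak2* (3.77 TPM), *Igf1* (3.40 TPM) and *Prlr* (3.23 TPM) lay close together, and the ranges of neighbors in this order overlapped between mice. *Socs3* was at 0.807 TPM and *Socs1* at 0.258 TPM, and neither overlapped its neighbors in this order.

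*Cish* (ENSMUSG00000032578.7) encodes CIS, the SOCS protein that competes with STAT5 for phosphorylated receptor tails and is itself induced by STAT5. It occupies bases 107296026 to 107302784 on the plus strand of chromosome 9 (GENCODE M21, GRCm38). In vehicle-treated mice 1 to 6 *Cish* was at 34.8, 48.9, 36.0, 36.8, 51.0 and 41.7 CPM. In SK-124-treated mice 1 to 6 it was at 7.93, 6.84, 7.39, 8.47, 10.8 and 8.06 CPM. Every SK-124-treated mouse lay far below the lowest vehicle-treated mouse. The group means were 41.5 ± 6.96 and 8.25 ± 1.38 CPM (SD, n = 6 each), a fold of 5.02, or -2.33 on the log2 scale. SK-124-treated mice 1 to 3 alone gave -2.49, and mice 4 to 6 alone gave -2.18. The predicted genes *Gm17040* and *Gm17041* share 4.07% and 7.46% of the exon bases of *Cish* on the opposite strand, and use of strand in the counting is not given in the sources used here. *Gm17040* did not exceed 0.346 CPM in any mouse and *Gm17041* was listed at 0 in all 12.

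The sequences around the start sites are shown because *Cish* is a textbook STAT5 target and the genes listed with it moved in both directions. The consensus TTCNNNGAA, which reads the same on both strands, was sought in RefSeq promoter windows (GRCm38.p6, 250 bases before to 50 after each start) and was present in 8.30% of 32851 windows. Of the 10 genes 9 had a window, with 14 windows in all, and 3 genes held a match, in 3 of the 14 windows. *Cish* held a pair of matches 2 bases apart, directly after the RefSeq start. *Socs3* and *Prlr* held 1 each, upstream of theirs, and that of *Prlr* was in only 1 of its windows. Among the 25 genes listed as STAT5 targets (all named with the target results), 20 had a window. *Bcl6*, *Csn2*, *Igfals* and *Socs3* held matches, in 6 of the 29 windows of these targets. Matches are in capitals.
Cish, chr9:107296654-107296683, plus strand: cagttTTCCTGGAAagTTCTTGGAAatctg
Socs3, chr11:117969501-117969530, minus strand: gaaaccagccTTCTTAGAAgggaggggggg
Prlr, chr15:10223786-10223815, plus strand: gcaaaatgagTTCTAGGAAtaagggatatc
Bcl6, chr16:23981357-23981456, minus strand: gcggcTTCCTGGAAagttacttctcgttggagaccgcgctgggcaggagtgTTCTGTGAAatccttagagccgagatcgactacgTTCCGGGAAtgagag
The last of these, from 1 of the RefSeq start sites of *Bcl6*, held 3 matches. Of the 4 genes shown, *Cish* was low with SK-124, *Socs3* and *Bcl6* rose, and *Prlr* was not called. *Cish* and *Socs3*, both with a match, thus moved in opposite directions. STAT5 lowers *Bcl6* in liver, and whether it does so in these kidneys was not tested. *Igfals*, which held matches but is not shown, fell (log2 fold change -0.58, FDR = 0.0166 by edgeR), and *Csn2* was listed at 0 in all mice. A match is a run of letters and was not tested for binding. The cAMP response element TGACGTCA was in 1.79% of all windows and in none of those of the listed genes.

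Of the 9 genes other than *Cish*, 4 were higher with SK-124 (*Socs3*, *Stat5a*, *Stat5b* and *Jak2*), 2 were lower (*Igf1* and *Socs2*) and 3 were not called (*Socs1*, *Ghr* and *Prlr*). The groups did not overlap for the 4 that were higher and for *Igf1*. The shares of all genes tested, given above, were 10.8% higher, 13.5% lower and 13.0% without overlap. The increases of *Stat5a*, *Stat5b* and *Jak2* were small. Scaled by library totals, *Stat5b* and *Jak2* were not called and *Stat5a* was, and by limma on TPM none of the 3 was called, with values given below. Library totals and TPM both carry the downward shift over all genes given above, so they are not separate checks.

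**Figure D1:**
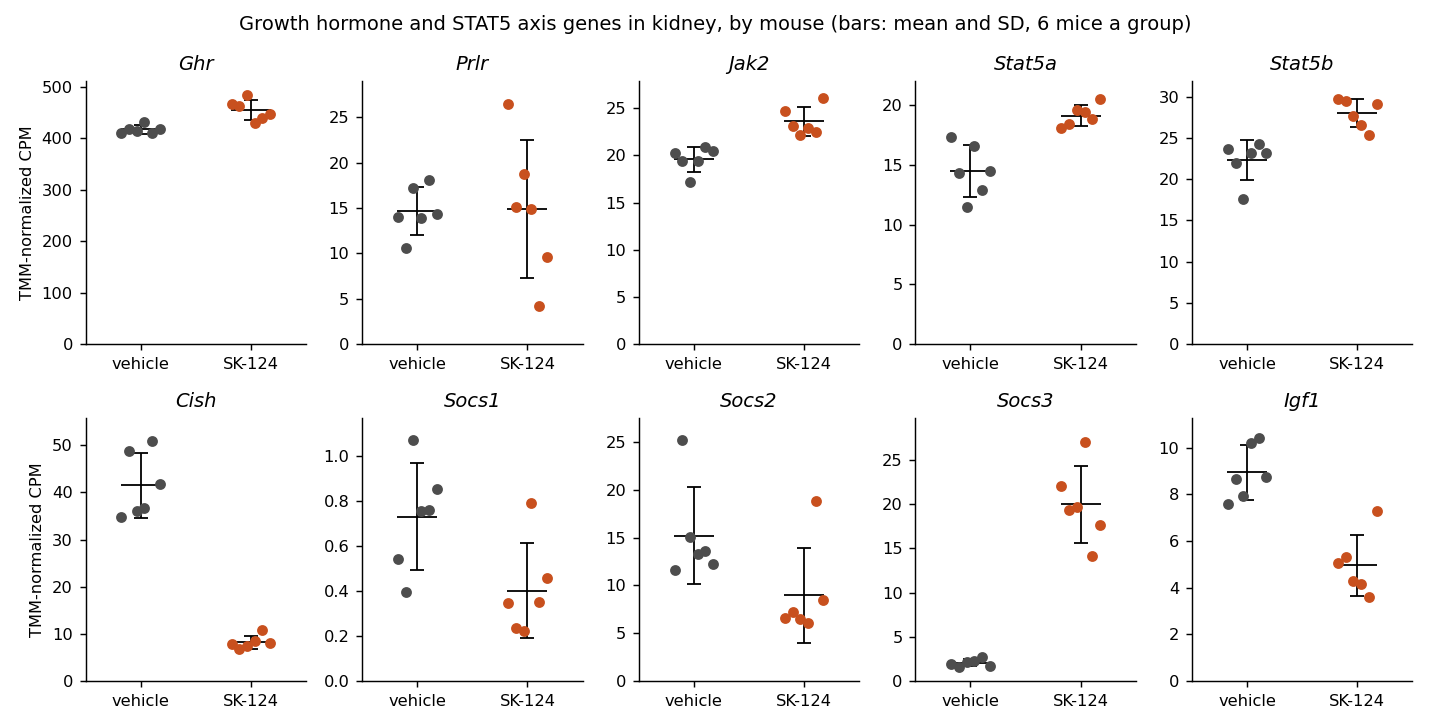
TMM-normalized CPM (vertical axes, starting at 0) of the 10 genes in 6 vehicle-treated mice (gray) and 6 SK-124-treated mice (orange), mice 1 to 6 from left to right, with horizontal bars for the mean and whiskers for the SD. *Cish* and *Igf1* lay lower without overlap and *Socs3* higher without overlap, while 1 vehicle-treated mouse (25.2 CPM) and 1 SK-124-treated mouse (18.9 CPM) stood above the rest of their groups for *Socs2*.

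*Socs3* (ENSMUSG00000053113.3, chromosome 11, 117966079 to 117970047, minus strand) encodes an inhibitor that binds JAKs and the gp130 receptor and is best known as the feedback gene of STAT3. It moved opposite to *Cish*. In vehicle-treated mice 1 to 6 it was at 1.97, 1.59, 2.15, 2.22, 2.7 and 1.71 CPM, and in SK-124-treated mice 1 to 6 at 22.1, 19.4, 19.7, 27.1, 14.1 and 17.6 CPM. Every SK-124-treated mouse lay far above the highest vehicle-treated mouse. *Socs3* rose by 3.28 on the log2 scale (FDR = 1.61e-10 by edgeR, standard error 0.16), a fold of 9.69. On the TPM scale, corrected for length, *Socs3* went from 0.807 ± 0.173 to 7.10 ± 1.64 while *Cish* went from 12.8 ± 2.69 to 2.5 ± 0.658 (SD, n = 6 each), so the order of these genes in the kidney was exchanged. SK-124-treated mouse 5 had the highest *Cish* and the lowest *Socs3* of its group.

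*Socs2* (ENSMUSG00000020027.18, chromosome 10, 95385362 to 95417180, minus strand) encodes the SOCS protein whose loss gives oversized mice through growth hormone signaling. It was at 11.6, 25.2, 15.1, 13.3, 13.6 and 12.3 CPM in vehicle-treated mice 1 to 6. In SK-124-treated mice 1 to 6 it was at 6.54, 7.25, 6.50, 6.04, 18.9 and 8.46 CPM. Of the SK-124-treated mice, 5 lay below all vehicle-treated mice, and mouse 5 lay above all of them but 1. *Socs2* fell by 0.75 on the log2 scale (FDR = 0.0415 by edgeR's quasi-likelihood test, standard error 0.26), a fold of 1.68. This call was close to the threshold: the estimate was -1.12 without SK-124-treated mouse 5 (FDR = 0.000266) and -0.55 without vehicle-treated mouse 2, the highest of its group (FDR = 0.116). The call was also lost without any 1 of SK-124-treated mice 1, 2, 3, 4 and 6 or vehicle-treated mice 3, 4 and 5, with DESeq2 (FDR = 0.0706), with robust dispersion (FDR = 0.117), and with only SK-124-treated mice 4 to 6 (log2 fold change -0.44, FDR = 0.378).

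*Socs1* (ENSMUSG00000038037.5, chromosome 16, 10782240 to 10785536, minus strand), which encodes the main brake on interferon receptors, was near the limit of detection, with as few as 4 reads in a mouse. It ranged from 0.396 to 1.07 CPM with a median of 0.758 in vehicle-treated mice and from 0.224 to 0.792 CPM with a median of 0.349 in SK-124-treated mice. The groups overlapped, with SK-124-treated mice 4 and 6 among the vehicle values. The log2 fold change of -0.83 (FDR = 0.0649 by edgeR's quasi-likelihood test, standard error 0.31) was not called. It was called without SK-124-treated mouse 4 (log2 fold change -1.15, FDR = 0.0107) and without vehicle-treated mouse 2 (-0.95, FDR = 0.0348), as well as with only SK-124-treated mice 1 to 3 (-1.42, FDR = 0.0239) and with library totals (-0.93, FDR = 0.0393).

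The SOCS family holds 4 further genes, which complete the list of 7 besides *Cish*. *Socs5*, which encodes a member linked to EGF receptor and IL-4 signaling, went from between 11.7 and 16.9 CPM (median 15.2) in vehicle-treated mice to between 7.96 and 10.3 CPM (median 9.27) in SK-124-treated mice. Its groups did not overlap, and it fell by 0.69 on the log2 scale (standard error 0.09, FDR = 1.74e-05, same test). *Socs4*, *Socs6* and *Socs7* were not called, with log2 fold changes of -0.08 (95% interval -0.23 to 0.07), 0.04 (-0.10 to 0.18) and -0.06 (-0.23 to 0.11). Across the 7 genes, 1 was higher, 2 were lower and 4 were not called, where 10.8% and 13.5% of all genes tested were higher and lower. Their median log2 fold change was -0.08 beside -0.01 over all genes tested. The ubiquitin ligase subunits to which SOCS boxes bind (*Elob*, *Eloc*, *Cul5* and *Rnf7*) gave 0 calls of 4 by edgeR, DESeq2 or limma, with 1 (*Rnf7*) at an unadjusted p under 0.05 by edgeR.

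Upstream of the SOCS genes, the growth hormone receptor changed little. *Ghr* (ENSMUSG00000055737.12, chromosome 15, 3317760 to 3583492, minus strand) ranged from 410 to 432 CPM (median 415) in vehicle-treated mice and from 430 to 483 CPM (median 455) in SK-124-treated mice. The groups overlapped in 1 mouse of each group. Its log2 fold change was 0.13 (95% interval 0.03 to 0.22, FDR = 0.0579, edgeR's quasi-likelihood test), and it was 0.01 with library totals or on the TPM scale. It was called by DESeq2 (FDR = 0.0023), with RLE scaling (FDR = 0.0456), without SK-124-treated mouse 4 (FDR = 0.0451), without vehicle-treated mouse 3 (FDR = 0.0479), and with only SK-124-treated mice 1 to 3 (log2 fold change 0.18, FDR = 0.0442).

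*Prlr* (ENSMUSG00000005268.20, chromosome 15, 10177238 to 10349180, plus strand), the prolactin receptor, had no common direction among the treated mice. It was at 14.0, 10.6, 17.2, 13.9, 18.1 and 14.4 CPM in vehicle-treated mice 1 to 6 and at 26.5, 15.1, 18.8, 14.9, 4.21 and 9.63 CPM in SK-124-treated mice 1 to 6. The treated mice spread on both sides of the vehicle range, with mice 1 and 3 above it and mice 5 and 6 below it. The log2 fold change was 0.01 with a 95% interval of -0.57 to 0.58 (FDR = 0.992, same test), so a change of up to that size in either direction was not resolved. It was 0.46 with only SK-124-treated mice 1 to 3 (FDR = 0.0883) and -0.61 with only mice 4 to 6 (FDR = 0.145).

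*Jak2*, *Stat5a* and *Stat5b* were each slightly higher with SK-124. *Jak2* (ENSMUSG00000024789.13, chromosome 19, 29251828 to 29313080, plus strand), the kinase on both receptors, ranged from 17.2 to 20.9 CPM (median 19.8) with vehicle and from 22.2 to 26.1 CPM (median 23.0) with SK-124. *Stat5a* (ENSMUSG00000004043.14, chromosome 11, 100859351 to 100885169, plus strand) ranged from 11.5 to 17.3 CPM (median 14.4) and from 18.1 to 20.5 CPM (median 19.1). *Stat5b* (ENSMUSG00000020919.11, chromosome 11, 100780731 to 100850724, minus strand), the STAT5 that carries most of the growth hormone signal for body growth, ranged from 17.6 to 24.3 CPM (median 23.2) and from 25.3 to 29.7 CPM (median 28.4). In none of the 3 genes did the groups overlap in CPM. The log2 fold changes were 0.27 for *Jak2* (standard error 0.06, FDR = 0.00389), 0.40 for *Stat5a* (standard error 0.09, FDR = 0.00221) and 0.33 for *Stat5b* (standard error 0.07, FDR = 0.00346), all by edgeR's quasi-likelihood test. With library totals they were 0.15 (FDR = 0.196), 0.29 (FDR = 0.042) and 0.21 (FDR = 0.0871). By limma on log2(TPM + 1) they were 0.09 (FDR = 0.564), 0.27 (FDR = 0.0763) and 0.15 (FDR = 0.381), and *Stat5b* was not called with only SK-124-treated mice 4 to 6 (0.28, FDR = 0.0634).

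*Stat5a* and *Stat5b* are neighboring paralogs, so their balance was also compared. *Stat5b* made up 52.6% ± 3.57 of their summed TPM in vehicle-treated mice and 49.9% ± 1.89 in SK-124-treated mice (SD, n = 6 each). The difference of -2.73 percentage points was within the spread between mice (two-sided exact permutation test, p = 0.123). The assignment of reads between the paralogs was uncertain by at most 2.98 reads in any mouse (the SD that RSEM gives), where the lowest count of either gene was 225. *Stat3* overlaps *Stat5a* on the opposite strand over 1.01% of the exon bases of *Stat5a*, and *Stat3* itself rose, as described below.

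The STAT5 target list held 25 genes reported as targets in liver, blood cells or mammary gland, without *Cish*. Of these, 20 were tested, 8 were higher and 6 lower, where 10.8% and 13.5% of all genes tested were. The median log2 fold change of the 20 was -0.01, as over all genes tested, with calls in both directions. The 8 that were higher include *Bcl6*, which STAT5 lowers in liver. In 7 of those that were higher and 4 of those that were lower the groups did not overlap (13.0% of all genes tested in both directions together). The list includes *Socs1*, *Socs2*, *Socs3* and *Igf1*, which are also counted above. The milk protein genes *Csn2* and *Wap*, STAT5 targets of the mammary gland, were listed at 0 in all 12 mice, and *Osm*, *Onecut1* and *Il2ra* did not pass the filter on low counts. The 6 targets not called were *Socs1*, *Elf5* (a mammary transcription factor, log2 fold change -0.74, FDR = 0.0665), *Ccnd2* (cyclin D2, -0.31, FDR = 0.124), *Igfbp3* (an IGF-binding protein, -0.11, FDR = 0.599), *Myc* (0.09, FDR = 0.636) and *Pim2* (a survival kinase, 0.21, FDR = 0.3). *Elf5* was called by DESeq2 (FDR = 0.0451) and without SK-124-treated mouse 4 (-1.05, FDR = 0.00663), vehicle-treated mouse 3 (-0.82, FDR = 0.0495) or vehicle-treated mouse 4 (-0.86, FDR = 0.038), and *Ccnd2* with library totals (-0.43, FDR = 0.0247).

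Of the targets that rose, *Cdkn1a*, *Socs3* and *Gadd45g* had the highest log2 fold changes. *Cdkn1a*, which encodes the cell cycle inhibitor p21, went from between 7.64 and 10.4 CPM (median 10) to between 81.3 and 126 CPM (median 107), and rose by 3.43 on the log2 scale (FDR = 1.94e-12 by edgeR, standard error 0.12). *Gadd45g*, a stress gene of the growth arrest family, went from between 10.1 and 22.1 CPM (median 13.9) to between 44.2 and 77.3 CPM (median 61.7), and rose by 2.06 on that scale (FDR = 1.28e-07). In both genes every SK-124-treated mouse lay above every vehicle-treated mouse. The others that rose were *Socs3*, *Pim1* (a survival kinase, 1.3), *Bcl6* (a transcriptional repressor that STAT5 lowers in liver, 1.10), *Bcl2l1* (encoding the survival protein BCL-XL, 0.64), *Mcl1* (another survival protein of that family, 0.43) and *Egfr* (the EGF receptor, 0.42), all log2 fold changes with an FDR of at most 0.0179. *Bcl6* varied widely, from 8.27 to 35.4 CPM with vehicle and from 22.1 to 67.5 CPM with SK-124. It was not called with only SK-124-treated mice 1 to 3 (0.78, FDR = 0.205) or with robust dispersion (1.10, FDR = 0.0769). *Egfr* and *Mcl1* were not called by limma on log2(TPM + 1), at 0.04 (FDR = 0.823) and 0.27 (FDR = 0.0519).

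The targets that fell did so by at most 0.94 on the log2 scale. *Ccnd1*, which encodes the cell cycle driver cyclin D1, went from between 89.8 and 127 CPM (median 106) to between 46.5 and 64.0 CPM (median 56.5). Its groups did not overlap, and it fell by 0.94 on the log2 scale (standard error 0.08, FDR = 3.28e-07, same test). *Pik3r1*, the regulatory subunit of PI3 kinase, had a log2 fold change of -0.67 (FDR = 7.9e-06), and *Bcl2*, a survival gene, of -0.58 (FDR = 6.66e-05). *Igfals*, which encodes the protein that holds IGF-1 in a long-lived serum complex, had a log2 fold change of -0.58 (FDR = 0.0166) with overlap between the groups, since SK-124-treated mouse 5 had 10.1 CPM where the other treated mice had at most 6.25. With only SK-124-treated mice 4 to 6 it was not called (-0.44, FDR = 0.189). *Igf1* and *Socs2* are the other 2 that fell.

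**Figure D2:**
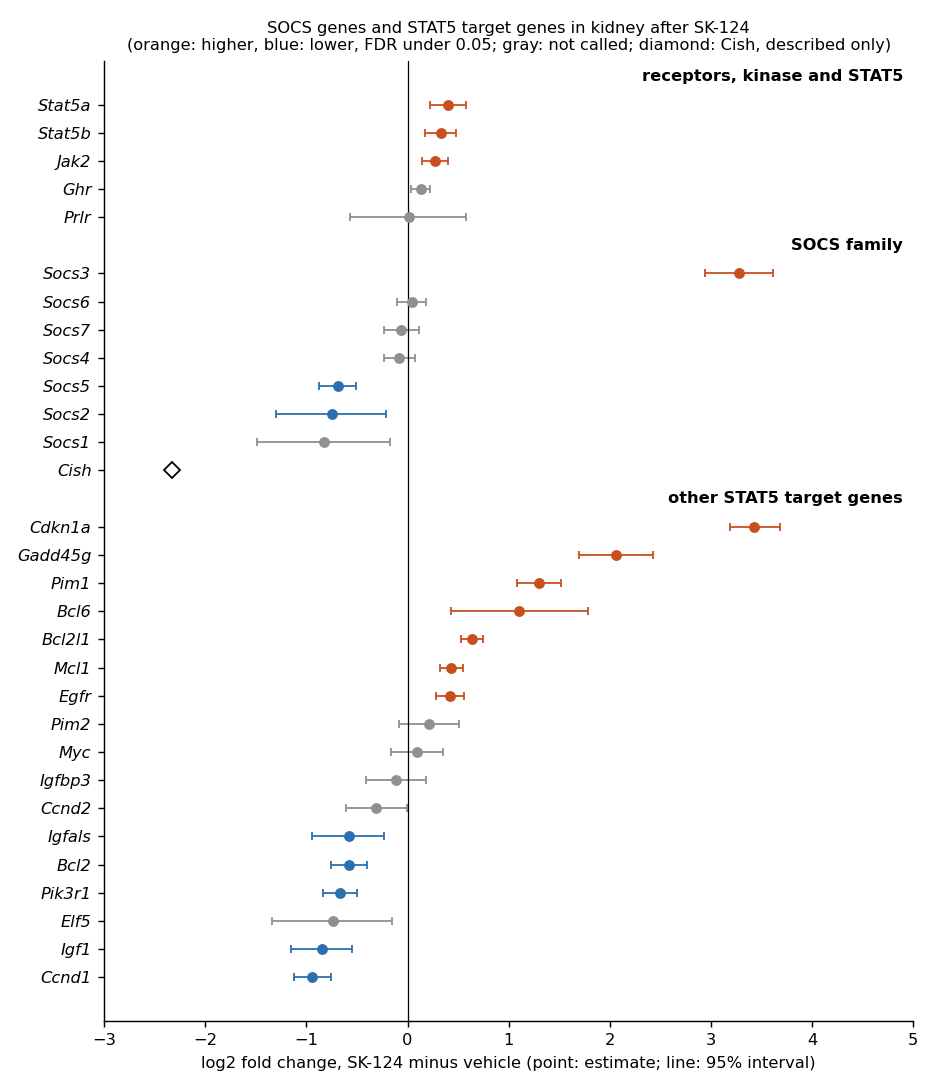
Log2 fold changes of SK-124 against vehicle (horizontal axis) for the receptors, kinase and STAT5 genes, the SOCS family and the other tested STAT5 target genes, with points for estimates and lines for 95% intervals (n = 6 mice a group). Genes called at an FDR under 0.05 are orange where higher and blue where lower, others are gray, and *Cish* is an open diamond at -2.33 without an interval because it was selected on this value. The other points spread on both sides of 0, from -0.94 for *Ccnd1* to 3.43 for *Cdkn1a*.

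*Igf1* (ENSMUSG00000020053.18, chromosome 10, 87858265 to 87937042, plus strand) encodes the growth factor that carries most growth hormone effects on growth. It was at 7.60, 8.67, 7.92, 10.2, 10.4 and 8.72 CPM in vehicle-treated mice 1 to 6 and at 5.04, 5.32, 4.26, 4.16, 3.61 and 7.30 CPM in SK-124-treated mice 1 to 6. The groups did not overlap, although SK-124-treated mouse 6 came close to the vehicle range. *Igf1* fell by 0.85 on the log2 scale (FDR = 0.000244 by edgeR's quasi-likelihood test, standard error 0.14), a fold of 1.81. SK-124-treated mice 1 to 3 alone gave -0.87 (FDR = 0.000433), and mice 4 to 6 alone gave -0.83 (FDR = 0.00844).

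On the TPM scale the call on *Igf1* was lost. It ranged from 2.60 to 4.17 TPM (median 3.45) with vehicle and from 1.92 to 4.60 TPM (median 2.30) with SK-124, and SK-124-treated mouse 6 had the highest value of all 12. By limma on log2(TPM + 1) its log2 fold change was -0.31 (FDR = 0.134). The mean length that RSEM assigned to *Igf1* transcripts differed between the groups, from 2280 to 2905 bases with vehicle and from 1548 to 2198 bases with SK-124, without overlap. TPM divides by this length. In whole kidney, fewer cells of a type and less RNA per cell cannot be told apart, for *Igf1* as for the other genes.

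**Figure D3:**
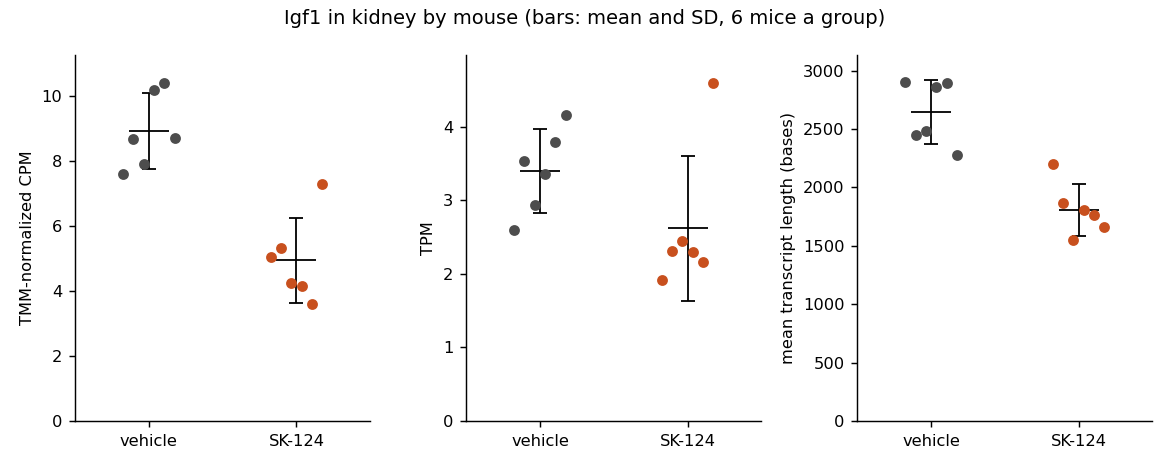
*Igf1* in the same 12 mice as TMM-normalized CPM, as TPM and as mean transcript length in bases (vertical axes starting at 0), with points for mice 1 to 6 from left to right, horizontal bars for the mean and whiskers for the SD. The groups separate in CPM (7.60 CPM or more against 7.30 CPM or less) and in length, and overlap in TPM.

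The IGF system around *Igf1* changed in both directions. Of its 20 listed genes 18 were tested, 8 were higher and 5 lower, where 10.8% and 13.5% of all genes tested were, and the median log2 fold change was 0.06. *Igfbp1*, which encodes an IGF-binding protein that insulin represses in liver, went from between 3.57 and 7.49 CPM (median 6.07) to between 56.5 and 143 CPM (median 89.9). Every SK-124-treated mouse lay far above the highest vehicle-treated mouse, and *Igfbp1* rose by 4.02 on the log2 scale (FDR = 1.19e-09 by edgeR, standard error 0.23). *Pappa*, a protease that frees IGF-1 from its binding proteins, rose by 1.99 on the log2 scale (FDR = 3.25e-09). *Stc1*, from the stanniocalcin genes whose proteins inhibit that protease, rose by 1.59 (FDR = 8.78e-05). The adapters *Irs2* (0.81) and *Irs1* (0.55) also rose, and so did the IGF-1 receptor gene *Igf1r* (0.50) and the insulin receptor gene *Insr* (0.37). The eighth was the binding protein gene *Igfbp4* (0.22, FDR = 0.0039), which was not called with library totals (0.11, FDR = 0.287). The genes that fell besides *Igf1* and *Igfals* were *Igfbp5*, *Stc2* and the adapter *Grb10*. *Igfbp5*, an IGF-binding protein (366 ± 49.3 against 201 ± 34.2 CPM, SD, n = 6 each), was at -0.86 (FDR = 1.41e-05). *Stc2*, the other stanniocalcin gene, moved opposite to *Stc1*, at -0.64 (FDR = 0.00261), and *Grb10* was at -0.24 (FDR = 0.0296). The call on *Grb10* was lost without any 1 of 5 mice (SK-124-treated mice 3 and 4, vehicle-treated mice 2, 5 and 6), at an FDR of up to 0.0731, and *Insr* and *Irs1* were not called by limma on log2(TPM + 1) (FDR = 0.44 and 0.0527).

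Among the JAK and STAT genes, the largest change was in *Stat3*, which encodes the factor activated by IL-6 family cytokines. Vehicle-treated mice had 35.5 to 44.9 CPM (median 42.8) and SK-124-treated mice 79.2 to 108 CPM (median 91.3). The groups were far apart, and *Stat3* rose by 1.12 on the log2 scale (FDR = 6.25e-09 by edgeR, standard error 0.07). Of 10 such genes tested, 4 were higher (*Stat3*, *Stat5a*, *Stat5b* and *Jak2*) and 1 lower (*Tyk2*), where 10.8% and 13.5% of all genes tested were. *Tyk2*, a kinase of interferon receptors, was at -0.26 (FDR = 0.0126). It was not called with only SK-124-treated mice 4 to 6 (FDR = 0.109) or by limma on log2(TPM + 1) (FDR = 0.0548).

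Of 18 listed genes of the IL-6 family and STAT3, a list without *Socs3*, 11 were tested, 6 were higher and none was lower, where 10.8% and 13.5% of all genes tested were higher and lower. The median log2 fold change of the 11 was 0.41. The 6 were *Stat3*, the oncostatin M receptor gene *Osmr* (1.92, FDR = 3.29e-08), the fibrinogen chain gene *Fga* (1.76, FDR = 1.25e-06), the acute-phase genes *Lrg1* (0.91, FDR = 0.000109) and *Lcn2* (0.88, FDR = 0.00207), and the LIF receptor gene *Lifr* (0.37, FDR = 2.25e-05), all by edgeR's quasi-likelihood test. The 5 that were not called were the other fibrinogen chain genes *Fgb* (0.41, FDR = 0.437) and *Fgg* (0.30, FDR = 0.128), the IL-6 receptor gene *Il6ra* (0.34, FDR = 0.101), *Il6st*, which encodes gp130 (0.01, FDR = 0.95), and *Bcl3* (0.04, FDR = 0.856). *Osmr* went from between 3.62 and 6.02 CPM (median 5.08) to between 13.1 and 22.6 CPM (median 19.1), with every SK-124-treated mouse above every vehicle-treated mouse. The acute-phase genes *Saa1* and *Saa2*, which respond strongly to IL-6 in liver, were listed at 0 in all mice. *Lifr* was not called by limma on log2(TPM + 1) (0.13, FDR = 0.474), and *Lcn2* was not called with only SK-124-treated mice 1 to 3 (FDR = 0.0528).

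Receptors of other STAT5-activating cytokines and the phosphatases that act on JAK and STAT were examined beside the growth hormone receptor. The counts in this paragraph stand beside 10.8% higher and 13.5% lower of all genes tested. Of 9 tested receptor genes that use JAK2, 2 were higher and none lower: *Csf2rb* (0.84, FDR = 0.000204) and its paralog *Csf2rb2* (1.25, FDR = 0.000395). *Csf2rb* encodes the chain shared by the IL-3, IL-5 and GM-CSF receptors of blood cells, and *Csf2rb2* a chain of the IL-3 receptor. The levels of both genes were low, at 1.57 ± 0.158 against 2.82 ± 0.469 CPM and 0.889 ± 0.233 against 2.10 ± 0.615 CPM (SD, n = 6 each). Reads of such paralogs can be split between them, which was not examined for this pair. *Csf2rb* was not called by limma on log2(TPM + 1) (0.03, FDR = 0.888). On that scale it was at 0.535 ± 0.275 TPM with vehicle and 0.548 ± 0.15 TPM with SK-124. The reason for the difference between CPM and TPM was not tested. Of 4 tested receptor genes that use JAK1 and JAK3, *Il4ra* was higher (0.47, FDR = 6.64e-05, and not called by limma on log2(TPM + 1), FDR = 0.112) and *Il15ra* lower (-0.25, FDR = 0.0459). The call on *Il15ra* was lost without any 1 of 8 mice (SK-124-treated mice 2, 3, 5 and 6, vehicle-treated mice 1, 2, 4 and 5), at an FDR of up to 0.0985. Of the 12 other brakes on JAK and STAT, 2 phosphatase genes were higher, *Ptpn1* (PTP1B, which acts on JAK2, 0.77, FDR = 5.55e-08) and *Ptpn2* (0.33, FDR = 0.00532), and *Pias3*, which encodes an inhibitor of STAT3, was lower (-0.55, FDR = 3.78e-05), all by edgeR's quasi-likelihood test. *Ptpn2* was not called with library totals (0.22, FDR = 0.105), by limma on log2(TPM + 1) (FDR = 0.278) or with only SK-124-treated mice 1 to 3 (FDR = 0.052). Among the ligands, *Gh*, *Prl* and *Il3* were listed at 0 in every mouse. Only 2 of 11 ligand genes were tested (*Thpo* and *Il15*), and edgeR and DESeq2 called neither, while *Thpo* had an unadjusted p under 0.05 by edgeR and was called by limma on either TPM scale.

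**Figure D4:**
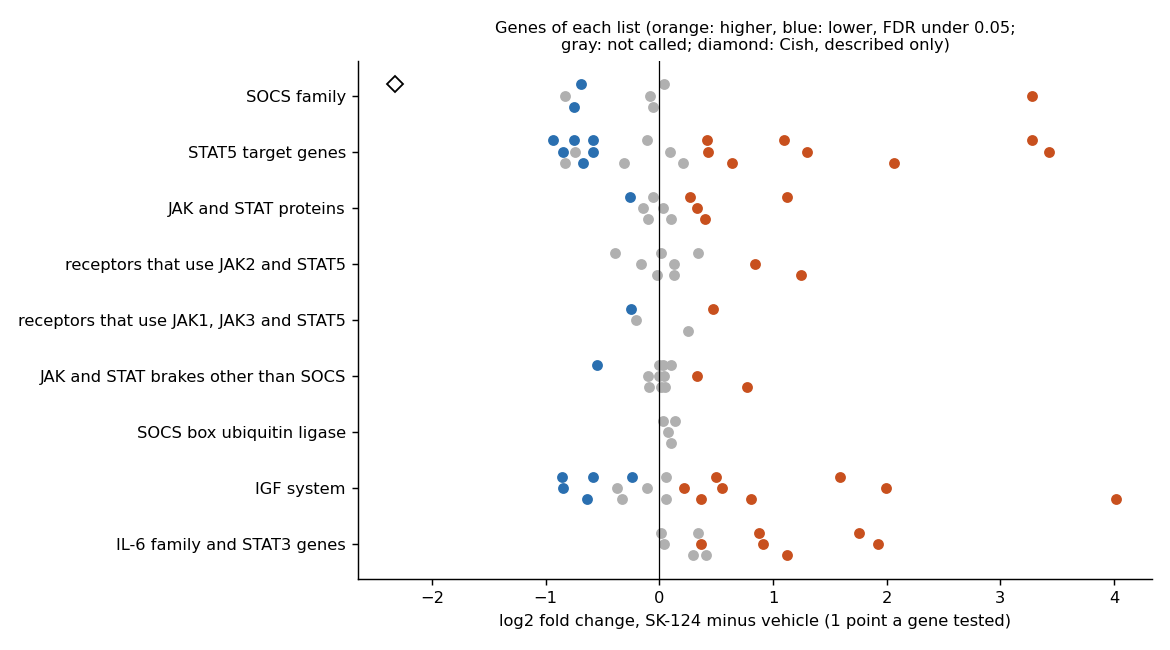
Log2 fold change of SK-124 against vehicle (horizontal axis) for every tested gene of 9 lists (rows, with points offset vertically so that they can be told apart), orange where higher and blue where lower at an FDR under 0.05, gray where not called, and an open diamond for *Cish*. The IL-6 family and STAT3 row has 6 orange and no blue points and the STAT5 target row has 8 orange and 6 blue points.

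Markers of kidney and other cell types were read in the same libraries. Their counts stand beside 10.8% higher and 13.5% lower of all genes tested. The proximal tubule markers, the defining genes of kidney cortex, summed to between 7840 and 8800 CPM with vehicle and between 7250 and 9290 CPM with SK-124, with 0 of 7 called by edgeR or DESeq2, 0 at an unadjusted p under 0.05 by edgeR and 2 called by limma on either TPM scale. Of the distal nephron markers 1 of 7 was called (*Aqp2*, higher). The endothelial markers *Kdr* (-0.85) and *Tek* (-0.66), 2 of 6, were lower, with summed levels of 160 to 235 against 137 to 231 CPM. The others were not called and lay on both sides of 0: *Cdh5* (0.29), *Flt1* (0.12), *Pecam1* (0.07) and *Emcn* (-0.24). The fibroblast and pericyte markers *Pdgfrb* (-0.93) and *Col1a2* (-0.45), 2 of 5, were lower, with summed levels of 120 to 185 against 83.1 to 144 CPM. Macrophage markers summed to between 66.8 and 87.9 CPM with vehicle and between 68.6 and 86.2 CPM with SK-124, with 2 of 7 lower (*Cx3cr1* and *Cd68*). The others were not called, at 0.18 for *Csf1r*, 0.16 for *C1qb*, 0.09 for *C1qa*, -0.15 for *C1qc* and -0.62 for *Adgre1*. B cell markers fell from a sum of 7.11 to 16.6 CPM to one of 1.70 to 3.47 CPM, with all 3 tested of 6 lower (*Ighm*, *Cd79a* and *Igkc*, the last not called for SK-124-treated mice 1 to 3 alone, FDR = 0.0915, or for mice 4 to 6 alone, FDR = 0.0704), and T and NK cell markers summed to at most 3.32 CPM in any mouse, with 1 of 8 tested and not called. Red blood cell markers were not called (0 of 5 by any tool, 0 at an unadjusted p under 0.05), and neither was the 1 tested marker of adrenal cortex, whose *Cyp21a1* was listed at 0 in every mouse. The adipocyte markers summed to between 12.5 and 31.5 CPM with vehicle and between 15.5 and 31.1 CPM with SK-124, and *Fabp4*, the 1 tested of 5, was not called by edgeR (unadjusted p under 0.05) and was called by DESeq2. The part of these cell types in the changes of *Igf1*, *Csf2rb*, *Il4ra* and the other genes above was not tested.

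The genes whose levels were most like those of *Cish* over the 12 mice, by Pearson's r on log2(CPM + 0.5), were *Zfp768* (0.985), *Nuak2* (0.983), *Kifc3* (0.978), *Dleu7* (0.977) and *Bsnd* (0.976). *Nuak2* encodes a kinase of the AMPK-related family that also holds the SIKs, *Kifc3* a kinesin motor, and *Bsnd* barttin, a subunit of kidney chloride channels. The treatment groups form separate clusters for all of these, so the values mainly describe the difference between the groups. After each group's mean was subtracted, r was 0.761, 0.652, 0.395, 0.250 and 0.291 in the same order. Of the other axis genes, *Igf1* had an r of 0.839 with *Cish* over the 12 mice and *Socs2* one of 0.738. Values on the negative side were -0.978 for *Socs3*, -0.853 for *Ghr*, -0.821 for *Stat5a*, -0.806 for *Jak2* and -0.79 for *Stat5b*, and *Prlr* was at 0.035. After the group means were subtracted, r lay between -0.528 (*Prlr*) and 0.680 (*Socs2*) over the axis genes that averaged at least 1 CPM. There *Ghr* was at -0.447, *Socs3* at -0.243 and *Igf1* at -0.113. Among the 6 SK-124-treated mice alone, the values farthest from 0 were 0.826 for *Socs2*, -0.816 for *Stat5b* and -0.778 for *Prlr*. The 6 vehicle-treated mice did not repeat them for *Stat5b* (0.348) and *Prlr* (-0.119), and gave 0.527 for *Socs2*. SK-124-treated mouse 5 was the highest of its group for both *Socs2* and *Cish*. Among the 5 genes with the highest r, *Nuak2* had the log2 fold change closest to that of *Cish*, at 54.5 ± 12.4 CPM with vehicle and 12.7 ± 1.37 CPM with SK-124 (SD, n = 6 each), or -2.10 on the log2 scale.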

How the data were processed

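Whole-kidney RNA from 12 mice was sequenced on a BGISEQ-500 instrument, 6 mice per group as the labels give them. The submitters' processing notes name FastQC, STAR 2.7.2b, RSEM 1.3.0, DESeq2 and the mm10 build. The authors deposited RSEM gene tables with expected counts (estimated reads per gene, not normalized), TPM scaled by length and library, mean transcript lengths (a number of other kind, in bases, which the deposited tables give per gene) and the posterior SD of each count. Of 55401 identifiers, 55141 were in GENCODE M21, 54349 of them with the same version. Promoter sequences are from RefSeq (GRCm38.p6). All 10 symbols matched.

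Expected counts were rounded, scaled by TMM, filtered with filterByExpr and fitted with edgeR 4.0.16 (R 4.3.3) without a replicate block, and FDR was adjusted over all 14159 genes. Standard errors are the log2 fold change over the square root of F. The design had no covariate. Alternatives were DESeq2 1.42.0, limma 3.58.1 on log2(TPM + 1) and log2(TPM + 0.1), RLE scaling, library totals, unfiltered genes, a minimum of 10 counts per mouse, counts left unrounded, a replicate block, robust dispersion, each mouse left out in turn, and SK-124-treated mice 1 to 3 or 4 to 6 only. The edgeR, DESeq2 and limma fits were tried on simulated counts in which 200 genes differed. For the comparison of SK-124 with vehicle, edgeR recovered 98.5% of them over 14060 genes with 5.74% false calls, DESeq2 98.0% with 11.3%, and limma 99.0% over 14159 genes with 10.4%. There limma was given log2(CPM + 1), so its use on TPM was not tried. The 200 genes averaged above 1 CPM and differed by at least 1 on the log2 scale, equally up and down. Smaller differences, such as those of *Ghr*, *Jak2*, *Stat5a* and *Stat5b*, were not tried. Neither were differences in genes below 1 CPM, such as *Socs1*, nor as many changed genes as in the kidneys. The rates do not cover these. The exact permutation test was not tried on simulated data. Python 3.11.15, numpy 2.4.6, pandas 2.3.3, scipy 1.17.1 and matplotlib were used.

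The genes and lists were chosen with earlier results of these data known, so no value here is independent support for the choice. Named are the 10 axis genes, every SOCS gene, up to 5 called genes with the largest and 5 with the smallest log2 fold change of each list, and the 5 genes most like *Cish* among those averaging 1 CPM or more. Any other gene was named after its values were seen. Same-numbered mice of the groups are different animals: their deviations from the group means correlated at -0.106 to 0.168, above 0.1 in 2 of 6 pairs, so the numbers do not pair them. Between mice of a group, chi-square per degree of freedom was at least 4.41 in all 30 pairs, so no pair of libraries held the same counts. Depth limits mainly genes such as *Socs1*, and p-values weigh the difference between the groups against the spread between mice. Some listed genes are not reported here.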

Additional observations from a re-analysis of the deposited data

Results flagged for a closer look

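A single mouse stood far from the other 5 of its group, by the ratio of its gap to the whole range of the group, in 8 of 96 values tested (48 named genes in 2 groups), where chance gives about 5. The values share mice and are not independent.

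*Socs2* was flagged in both groups. Vehicle-treated mouse 2 had 25.2 CPM, where the others had 11.6 to 15.1, and SK-124-treated mouse 5 had 18.9 CPM, where the others had 6.04 to 8.46. The same treated mouse had 10.1 CPM of *Igfals*, where the others had 4.50 to 6.25. It also had the highest *Cish* and the lowest *Socs3* and *Prlr* of its group, values that were not far enough from the rest to be flagged. Without it the log2 fold change of *Socs2* was -1.12, against -0.75 with all mice. The reason for its position was not tested.

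Vehicle-treated mouse 3 had the lowest *Stat5b* (17.6 CPM, others up to 24.3) and the lowest *Socs7* (20.1 CPM, others 25.7 to 28.5) of its group. *Ghr* was highest in vehicle-treated mouse 4 (432 CPM, others 410 to 418), *Ptpn2* in vehicle-treated mouse 1 (8.15 CPM, others 6.78 to 7.26), and *Cdkn1a* was lowest in vehicle-treated mouse 5 (7.64 CPM, others 9.48 to 10.4).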

How the results depend on the processing

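The rise of *Socs3* was called under all 24 alternatives, and *Cish* lay between -2.49 and -1.98 on the log2 scale. Of the 14 STAT5 targets called, 8 kept direction and call under all 24 alternatives: *Socs3*, *Bcl2l1*, *Bcl2*, *Pim1*, *Ccnd1*, *Gadd45g*, *Pik3r1* and *Cdkn1a*. Over all genes, 777 were higher and 3058 lower with library totals (main 1536 and 1917), 498 and 500 were higher by limma on log2(TPM + 0.1) and log2(TPM + 1), and 1233 were lower with SK-124-treated mice 1 to 3 alone and 1267 with mice 4 to 6 alone. With a mouse left out, 1320 to 1863 were higher and 1633 to 2079 lower. Among the 9 axis genes other than *Cish*, the 4 that were higher became 2 with library totals and 1 by limma on either TPM scale. The 2 that were lower became 3 with library totals or only SK-124-treated mice 1 to 3. They became 1 with DESeq2, robust dispersion, limma on either scale or only SK-124-treated mice 4 to 6, and 1 to 2 with a mouse left out, when 4 to 5 were higher. *Prlr*, not called under any alternative, changed sign: -0.61 with SK-124-treated mice 4 to 6 only, -0.13 with library totals, -0.30 and -0.17 by limma on log2(TPM + 0.1) and log2(TPM + 1), -0.09 with the replicate block, and -0.24 to 0.20 with a mouse left out. For the *Stat5b* share the difference stayed between -3.43 and -1.29 points, with no p under 0.05. The block of same-numbered mice, which share only a number, changed no call among the axis genes (*Socs2* -0.80, FDR = 0.0191 by edgeR), and 2 of 6 vehicle-treated mice correlated best with their own number; the share under the block was -2.73 points (exact sign-flip permutation, p = 0.25). The causes of these changes were not tested.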
